A study of Mus musculus with 6 samples.

Results

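The Dlk1-Dio3 microRNA cluster is a run of imprinted microRNA genes on distal mouse chromosome 12. Its microRNAs were measured in day 7 embryoid bodies, which are balls of embryonic stem cells left to differentiate in suspension. The members were 42 listed microRNAs, found by the names of the probes, out of 334 mouse microRNA probes on the array. Members are named without their mmu- prefix (mmu-miR-299 is miR-299). Each had 1 probe, and 40 of the 42 were bright enough to be tested. The stem cells carried human BRCA1, the breast cancer susceptibility gene, in its wild-type form (WT group), with the missense change M1652I (MI group) or with the missense change R1699Q (RQ group). All groups, and the reference RNA, share the strain label 129S7/SvEv Brd-Hprt b-m2. Each group held 2 arrays labelled as biological replicates; the labels do not say whether these came from separate cultures, so the p-values rest on a spread between arrays that may be technical only. The labels used here also do not say how many stem cell clones stand behind a group. On every array the group's own RNA was in the Cy3 channel and RNA labelled as wild-type embryoid body was in the Cy5 channel, and the dyes were never swapped.

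In this locus Dlk1, Rtl1 and Dio3 encode proteins and are transcribed from the paternal chromosome. The long noncoding RNAs Meg3, Rian and Mirg and the microRNAs are transcribed from the maternal one, under a control region that is methylated on the paternal copy. The microRNAs lie in order along this maternal transcription unit: some in or next to Meg3, some antisense to Rtl1 and a few in Rian. Then comes the large group from miR-379 to miR-410, of which the last part lies in Mirg. In mouse pluripotent stem cells, activity of the maternal noncoding RNAs is known as a mark of full developmental potential, and many of the microRNAs are later abundant in the brain.

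The sequences show what the probes could tell apart. Through RefSeq (GRCm38.p6), 39 of the 42 probes matched a mature microRNA. In 20 of them the complement of the whole mature sequence began at the first base of the probe. The other 19 were matched by a shared stretch, which in miR-665, miR-410 and miR-412 was the whole mature sequence. These 39 microRNAs had 39 distinct seeds, so no seed was shared. The interval microRNAs, all members but miR-345, spanned 180 kb from miR-770 to miR-410. In RefSeq 1 of them lay within Meg3, 8 within the span of Rtl1 (among them miR-337, miR-540 and miR-665, grouped below with the Meg3 side), 2 within Rian and 8 within Mirg. The microRNAs on which the results turn are given 5′ to 3′ with the seed (bases 2 to 8) in capitals. The first 5 were called in a comparison, the next 2 had large changes that were not called, and the last 3 were the brightest members.
mmu-miR-299 (miR-299a-5p): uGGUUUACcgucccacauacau
mmu-miR-127 (miR-127-3p): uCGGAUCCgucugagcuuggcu
mmu-miR-665 (miR-665-3p): aCCAGGAGgcugaggucccu
mmu-miR-543 (miR-543-3p): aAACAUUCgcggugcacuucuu
mmu-miR-345 (miR-345-5p): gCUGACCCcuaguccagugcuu
mmu-miR-134 (miR-134-5p): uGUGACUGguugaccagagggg
mmu-miR-136 (miR-136-5p): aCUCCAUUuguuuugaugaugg
mmu-miR-494 (miR-494-3p): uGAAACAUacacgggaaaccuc
mmu-miR-770-3p: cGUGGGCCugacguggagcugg
mmu-miR-666 (miR-666-5p): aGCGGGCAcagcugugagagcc

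Of the 42 probes, each 60 bases long, 20 began with the complement of a whole mature microRNA. Another 19 held the complement of a shared stretch, which for some, such as miR-665, was the whole mature sequence. For 3 (miR-376c, miR-487b and miR-485-5p) no match was found. In the probe of miR-299 below the complement is in capitals. The rest of the probe follows in lower case, and its last 36 bases were a stem shared by 331 of the 334 mouse probes.
miR-299 probe: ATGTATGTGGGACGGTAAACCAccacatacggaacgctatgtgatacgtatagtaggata
Mature miR-299a-5p lies at chr12:109710644-109710665 on the plus strand (GRCm38.p6). The mature sequences of miR-543, called in MI minus WT, and miR-495 both end in ggugcacuucuu, and cross-hybridisation between them was not tested. The closest pair of probes, compared position by position, was that of miR-300 and miR-381. Their 22-base complements differed at 3 positions, and cross-hybridisation was not tested here either. They are shown for that reason, again with the seed in capitals.
mmu-miR-300 (miR-300-3p): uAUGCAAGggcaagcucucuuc
mmu-miR-381 (miR-381-3p): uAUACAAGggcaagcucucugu
The probe named miR-411 shared only 16 bases with the mature sequence it matched best, miR-411-3p, and its values are those of the probe. The probe of miR-341 shared 17 bases with miR-341-3p. The listed miR-345 is not inside the imprinted interval. It lay 704 kb before the start of Meg3 at chr12:108836989-108837010 (GRCm38.p6) and is described apart.

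The arrays lay on 1 slide, with both WT arrays in row 1 and all MI and RQ arrays in row 2, so the slide row and the difference between WT and the mutant groups cannot be told apart. Negative control spots had a mean net Cy3 signal (mean minus local background, in scanner units) of 43.8 to 59.4 on the WT and MI arrays and of 93.0 and 102.8 on the RQ arrays. Their part in the results below was not tested. Of the 10 pluripotency microRNAs on the array, chosen as markers of undifferentiated cells, all 10 were well above background in Cy3 on all arrays, and their median log2 Cy3 over Cy5 was 5.08 to 5.44. On all 6 arrays this median was below 0 for the neural, the muscle and heart, the mesenchymal and fibroblast, and the blood markers. These medians depend on the RNA in Cy5 as well as on the group's own RNA. Mean net Cy5 over the 6 arrays was 65228.5 for miR-451 (blood), 6962 for miR-1 (muscle and heart) and 39.9 for miR-294 (pluripotency). The medians were therefore not read as the cell content of the embryoid bodies. Feeder cells would add the mesenchymal and fibroblast markers. Of the 6 neural markers on the array, 4 were above background in Cy3 on all arrays and miR-153 on none. Of the 5 muscle and heart markers 2 were, with miR-208 on none. All 6 mesenchymal markers were, and 3 of the 5 blood markers, with miR-144 on none. Against their lists, the mean WT ratio was 1.06 for miR-206 (muscle and heart) and 1.82 for miR-214 (mesenchymal). Between RQ and WT the pluripotency list had 0 higher and 3 lower calls, the neural list 1 higher and 0 lower, the muscle and heart list 0 and 2, the mesenchymal list 0 and 2 and the blood list 1 and 1. Between MI and WT, in the same order, these counts were 0 and 3, 0 and 0, 1 and 1, 1 and 0, and 0 and 0. Between RQ and MI they were 3 and 1, 0 and 0, 0 and 0, 0 and 2, and 0 and 0. Their part in the cluster's values was not tested. Bulk RNA cannot tell fewer cells of a type from less RNA per cell.

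Most of the cluster was detected in the embryoid bodies. On the 6 arrays 36 to 41 of the 42 probes had a net Cy3 signal above the mean of the negative controls, the fewest on the RQ arrays. The scanner called 35 of the 42 probes well above background in Cy3 on all 6 arrays. Another 5 were above background on some arrays (miR-433-5p, miR-376b*, miR-376a*, miR-668 and miR-377). The 2 untested members, miR-380-5p and miR-412, were above background on none. The median net Cy3 signal of the 42 members was 160 to 222 on the 6 arrays, beside 169 to 260 for all tested probes. In Cy5 their median was 42.0 to 55.6, and that of all tested probes was 148 to 185. Mean Cy5 of the negative controls was 11.5 to 26.0. In Cy5 33 of the 42 probes were well above background on all 6 arrays and 5 on none (miR-540, miR-433-5p, miR-380-5p, miR-323 and miR-412). The ratios of these 5 rest on a Cy5 signal near background. In Cy5 miR-667 was above background on 4 arrays, miR-376c and miR-377 on 2 and miR-668 on 1. Mean net Cy5 was also within the range of the negative controls for miR-376c (21.7), miR-668 (21.2), miR-667 (23.6), miR-485-5p (24.8) and miR-376a* (25.7).

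**Figure D1:**
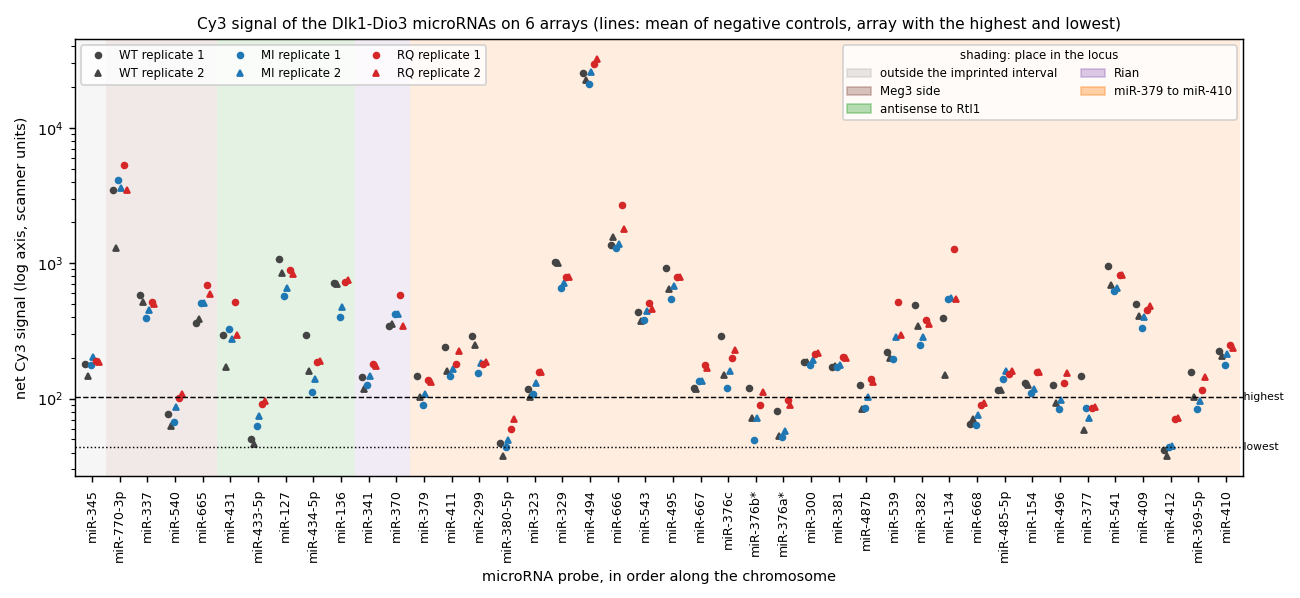
Net Cy3 signal of the 42 probes (log axis, scanner units) in their order along the chromosome, 1 symbol per array, with the highest and lowest array mean of the negative controls as lines. The probe of miR-494 reached 20892 to 32019 while the probes of miR-380-5p and miR-412 stayed between the lines or below them.

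The brightest probe was that of miR-494, with net Cy3 signals of 25392 and 22593 on the WT arrays, 20892 and 25592 on the MI arrays and 29766 and 32019 on the RQ arrays. The MI and WT arrays overlapped, and both RQ arrays were above all others before scaling. After scaling, the log2 Cy3 over Cy5 of miR-494 was 0.66 and 1.12 on the WT arrays, 0.67 and 0.87 on the MI arrays and 0.85 and 0.55 on the RQ arrays, and the groups overlapped. A probe's brightness also depends on its sequence, so the levels of different microRNAs were not set against each other.

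On the WT arrays, where both channels carry the same label, the log2 ratios of Cy3 over Cy5 of the interval microRNAs lay on one side of 0. All 39 tested interval microRNAs had a mean WT ratio above 0, from 0.04 for miR-376b* to 3.69 for miR-666, with a median of 0.81. Of the 254 tested probes outside the list, 45.7% were above 0 and their median was -0.18. Among probes well above background in both dyes on both WT arrays, 34 of 34 interval microRNAs were above 0, beside 47.9% of 188 other probes. The median ratio of the interval microRNAs was much alike on all arrays: 0.80 and 0.83 in WT, 0.78 and 0.85 in MI, and 0.84 and 0.70 in RQ. Over all tested probes the mean WT ratio ran from -7.04 (miR-451) to 9.45 (miR-294), although both channels carry the same label. Why the channels lay so far apart was not tested. Since the dyes were not swapped, a difference between the RNAs and one between the dyes cannot be told apart. For these reasons no ratio was read as a level against wild type.

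The pattern was also seen at each brightness. Probes were split evenly into dim, middle and bright sets by their average log2 intensity over both channels. In the dim set 22 of 22 members were above 0, beside 42.1% of the other probes. In the middle set 13 of 14 were (92.9%), beside 45.2%, and the exception was miR-345. In the bright set 4 of 4 were, beside 48.9%. These are descriptions of the probes on 2 arrays, with no test. The position of 0 is set by the scaling: with each array's median in place of loess 38 of the 39 were above 0, 32 were with the scanner's processed signals, and 31 were in the deposited table. Under each of these 3 scalings all 39 were above the median of the other probes. With only probes above background in Cy3 on all arrays, 55.2% of the other probes were above 0, their median was 0.29 and 32 of 34 interval microRNAs exceeded it.

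**Figure D2:**
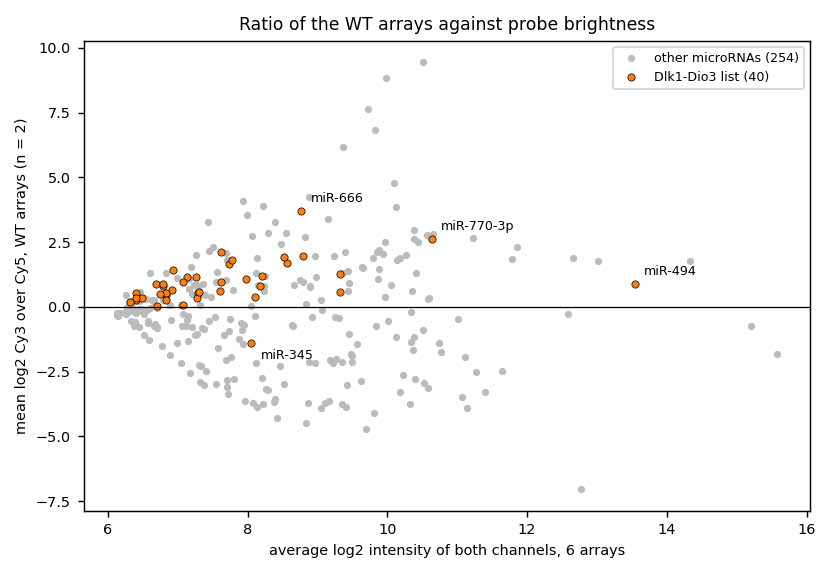
Mean log2 Cy3 over Cy5 of the 2 WT arrays against average log2 intensity, 1 point per tested probe. The 39 interval microRNAs lie above 0 across the range of brightness, between 0.04 and 3.69, while miR-345 lies at -1.39 among other probes.

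By place, the 4 tested microRNAs of the Meg3 side (miR-770-3p, miR-337, miR-540 and miR-665) had a median WT ratio of 1.51. The 5 antisense to Rtl1 (miR-431, miR-433-5p, miR-127, miR-434-5p and miR-136) had 0.58. The 2 of Rian (miR-341 and miR-370) had 1.15, and the 28 tested from miR-379 to miR-410 had 0.80. The ranges overlapped, since the last group alone ran from 0.04 to 3.69. The highest ratios were those of miR-666 (3.31 and 4.07 on the WT arrays), miR-770-3p (2.70 and 2.54), miR-409 (2.16 and 2.07) and miR-329 (1.78 and 2.11). The lowest inside the interval were those of miR-376b* (0.21 and -0.13), miR-154 (-0.01 and 0.14) and miR-433-5p (0.19 and 0.23). On both WT arrays miR-433-5p was not well above background in either dye, so its ratio there has no settled direction. On both MI arrays miR-376a* was not well above background in Cy3, and its MI ratio is only a bound.

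On the same chromosome but outside the interval, miR-345 ran the other way, at -1.51 and -1.28 on the WT arrays, -0.75 and -0.81 on the MI arrays and -1.16 and -1.26 on the RQ arrays. Its net Cy3 signal was 179 and 148, 177 and 202, and 190 and 186 in the 3 groups, and its net Cy5 signal 374 and 322, 300 and 297, and 248 and 249. The neighbour miR-342, also outside the interval and no member, had WT ratios of -1.51 and -1.39. Of 11 other microRNAs listed for the locus, 3 had a probe. The probes of miR-673 (0.45 and 0.43 on the WT arrays) and miR-679 (0.58 and 0.56) were tested and also lay above 0. Their mean net Cy5 was 14.1 and 18.2, within the range of the negative controls (11.5 to 26.0), so these ratios rest on a Cy5 signal near background. In Cy3 miR-673 was above background on 4 of the 6 arrays. The probe of miR-758 was not above background.

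The RQ group was compared with WT to ask whether a BRCA1 missense change went with other microRNA levels. Across all 294 tested probes 21.4% were called (limma, Benjamini-Hochberg adjusted p under 0.05), 22 higher (7.48%) and 41 lower (13.9%). Of the 40 tested members 1 was called, miR-299, which was lower, and 24.4% of the other probes were called. Leaving out 1 array gave 2 calls without WT replicate 1, 3 without WT replicate 2, 0 without RQ replicate 1 and 1, then miR-134, without RQ replicate 2. The median change (difference of mean log2 ratios) of the members was -0.06, and that of all tested probes was 0.03. Without adjustment 5 of the 40 members had a p under 0.05, beside 37.4% of all tested probes. In 9 members both RQ arrays were above both WT arrays and in 8 below them, beside 33.0% higher and 29.6% lower of all tested probes.

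The ratio of miR-299 was 1.10 and 1.20 on the WT arrays, 0.68 and 0.71 on the MI arrays and 0.59 and 0.45 on the RQ arrays. Both WT arrays were above all 4 mutant arrays. Between RQ and WT it fell by 0.63 (SE 0.11, limma adjusted p = 0.012), which is 1.54-fold. The net Cy3 signal was 291 and 250 on the WT arrays, 154 and 184 on the MI arrays and 179 and 186 on the RQ arrays, and again the WT arrays were apart. Net Cy5 signals of miR-299 were 64, 52, 52, 60, 46 and 56 on the 6 arrays in the same order, and those of WT and the mutants overlapped. On Cy3 signals alone, each array scaled to its 75th percentile, the RQ minus WT change of miR-299 was -1.02 (limma adjusted p = 0.0014). The fall was called under all 12 other processing choices, with changes from -0.62 to -1.39, the largest in the deposited table. Leaving out RQ replicate 1 gave -0.69 (adjusted p = 0.073) and leaving out RQ replicate 2 gave -0.56 (adjusted p = 0.072), both in limma.

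Other large changes between RQ and WT were not called. For miR-134, a microRNA known for its role in dendritic spine size in neurons, the WT arrays gave ratios of 0.80 and 0.78, the MI arrays 1.66 and 1.40, and the RQ arrays 2.10 and 1.16. All mutant arrays were above both WT arrays, and the 2 RQ arrays lay far apart. The RQ minus WT change was 0.84 (SE 0.30, limma adjusted p = 0.092). Single spots of this probe scattered: on WT replicate 1 the 4 spots ran from 124 to 873 in net Cy3, and on RQ replicate 1 the scanner marked 3 of the 4 as outliers. The mean scaled Cy5 signal of miR-134 was also higher than in WT, by 1.04 in RQ and 0.82 in MI on the log2 scale. Its net Cy5 was 126 and 38 on the WT arrays, 145 and 138 on the MI arrays and 250 and 101 on the RQ arrays. The RQ and WT arrays thus overlapped in Cy5, and the part of Cy5 in the change was not tested. Without RQ replicate 2 the change was 1.30 and was called (adjusted p = 0.023), and without RQ replicate 1 it was 0.37 (adjusted p = 0.27), both in limma.

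The ratio of miR-329 was 1.78 and 2.11 on the WT arrays, 1.88 and 1.63 on the MI arrays and 1.50 and 1.45 on the RQ arrays, so that both RQ arrays were below both WT arrays. The RQ minus WT change was -0.47 (SE 0.16, limma adjusted p = 0.087). It was called under 3 of the 12 other choices (processed signals, Cy3 alone and the deposited table, to -0.75) and was -0.18 with each array's median in place of loess. Without WT replicate 1 it was -0.64 and was called (limma adjusted p = 0.044), and without WT replicate 2 it was -0.30 (limma adjusted p = 0.21). For miR-539 the ratio was 0.55 and 0.67 in WT and 1.09 and 0.67 in RQ. At the Meg3 end miR-770-3p, processed from an intron of Meg3, had ratios of 2.70 and 2.54 in WT, 2.36 and 3.25 in MI, and 2.10 and 2.32 in RQ. Its RQ minus WT change was -0.41 (limma adjusted p = 0.34), but with each array's median in place of loess it was 0.22 and on Cy3 alone 0.58, so its direction depends on the scaling. Net Cy3 of miR-770-3p was 3465 and 1299 on the 2 WT arrays, a larger gap than that between WT replicate 1 and either MI array (4099 and 3583), and net Cy5 moved with it (1014 and 266).

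The MI group was compared with the same 2 WT arrays. Across all tested probes 15.6% were called, 27 higher (9.18%) and 19 lower (6.46%). Of the 40 members 5 were called, 3 higher (miR-345, miR-543 and miR-665) and 2 lower (miR-127 and miR-299), and 16.1% of the other probes were called. These came down to 0 on leaving out WT replicate 1, MI replicate 1 or MI replicate 2, and to 1 (miR-134) without RQ replicate 1 or 2; without WT replicate 2 there were 7. The median change was -0.03 in the members and 0.11 in all tested probes. Unadjusted, 10 of the 40 members had a p under 0.05, beside 36.7% of all tested probes. In 14 members both MI arrays were above both WT arrays and in 10 below them, beside 45.6% higher and 22.8% lower of all tested probes.

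**Figure D3:**
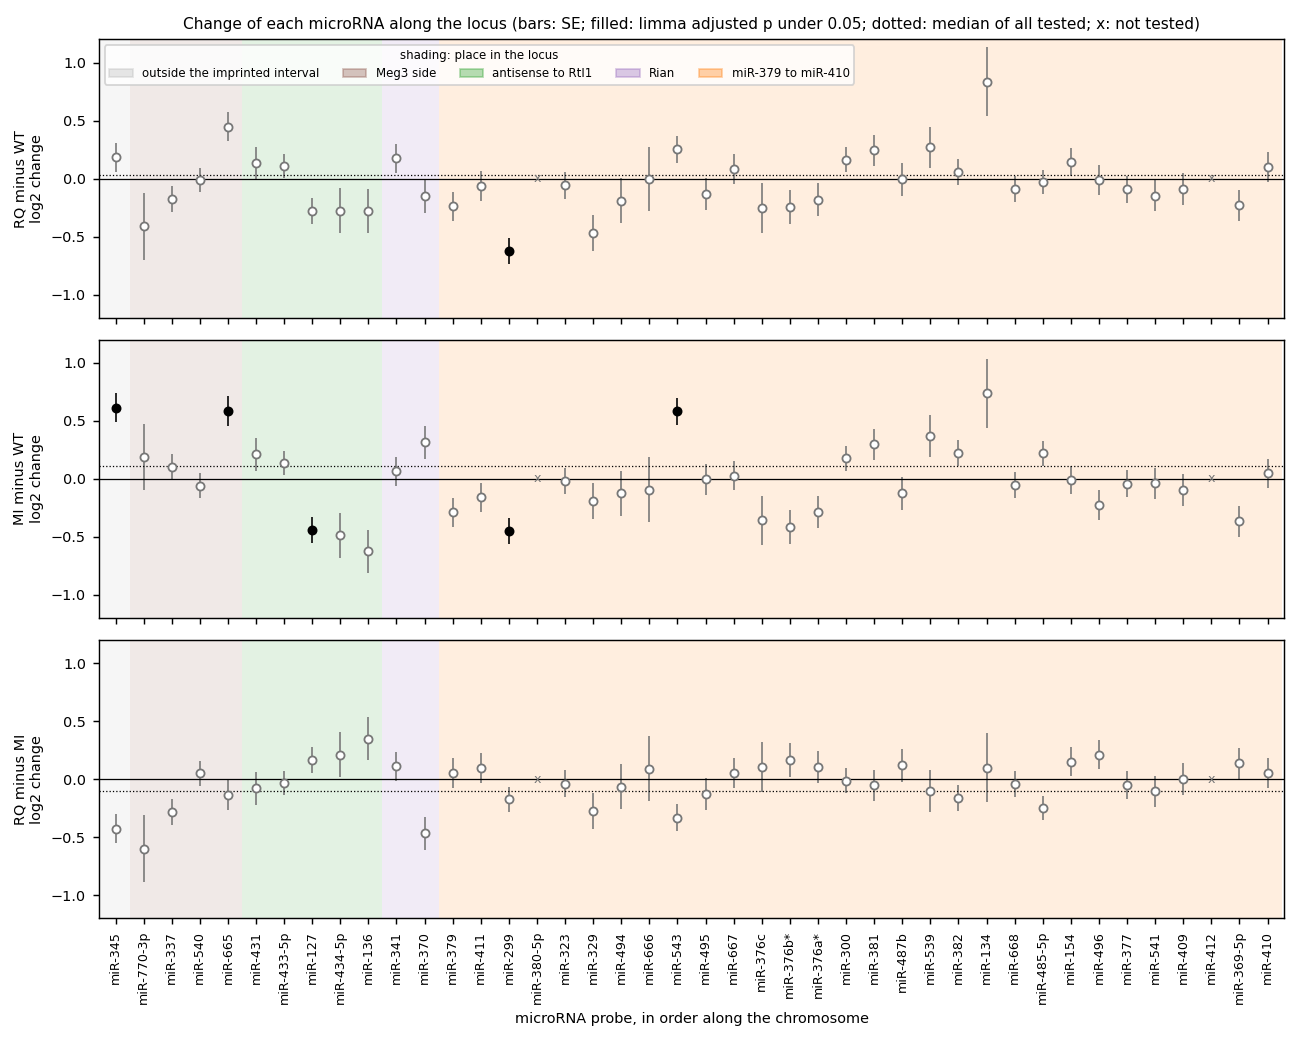
Change in mean log2 Cy3 over Cy5 of each member in its order along the chromosome, with SE (n = 2 arrays per group), for RQ minus WT, MI minus WT and RQ minus MI. Filled points passed the adjusted threshold: 1, 5 and 0 of 40. The 5 in MI minus WT include miR-345, which lies outside the interval.

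The 2 called falls in MI were 1 microRNA antisense to Rtl1 and 1 of the miR-379 to miR-410 group. The ratio of miR-127, which is transcribed antisense to Rtl1 and complementary to its messenger RNA, was 1.29 and 1.27 on the WT arrays, 0.92 and 0.75 on the MI arrays and 0.99 and 1.00 on the RQ arrays. Both WT arrays were above all 4 mutant arrays. The MI minus WT change was -0.44 (SE 0.11, limma adjusted p = 0.049), and the RQ minus WT change was -0.28 (limma adjusted p = 0.13). Net Cy3 of miR-127 was 1074 and 851 on the WT arrays, 574 and 656 on the MI arrays and 893 and 827 on the RQ arrays, so RQ overlapped WT before scaling. The MI minus WT change of miR-299 was -0.45 (SE 0.11, limma adjusted p = 0.045). Both called falls missed the threshold whichever array was left out, with limma adjusted p of 0.069 to 0.19 for miR-127 and 0.073 to 0.23 for miR-299.

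Neighbours of miR-127 that are also antisense to Rtl1 were not called in the reported fit. The ratio of miR-136 was 0.40 and 0.73 on the WT arrays, 0.04 and -0.16 on the MI arrays and 0.09 and 0.49 on the RQ arrays. The MI arrays were below the WT arrays and RQ overlapped WT. The MI minus WT change of miR-136 was -0.63 (SE 0.19, limma adjusted p = 0.074). It was called lower under 5 of the 12 other processing choices, as often as miR-127 (5 of 12), with changes down to -1.08. For miR-434-5p the WT arrays gave ratios of 0.87 and 0.29, the MI arrays 0.06 and 0.12, and the RQ arrays 0.30 and 0.30. Its MI minus WT change was -0.49 (limma adjusted p = 0.13). The change of miR-434-5p was -0.20 without WT replicate 1 (limma adjusted p = 0.34) and -0.77 without WT replicate 2, where it was called (limma adjusted p = 0.016). It was also called on Cy3 alone (-0.72, limma adjusted p = 0.024), and it was -1.20 in the deposited table (limma adjusted p = 0.051). The 5 antisense microRNAs had a median MI minus WT change of -0.44, the 4 of the Meg3 side 0.15, the 2 of Rian 0.19 and the 28 from miR-379 to miR-410 -0.05. Of the 5, 3 were below 0, and miR-431 and miR-433-5p were not; places were not tested against each other.

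The rises in MI were spread out. The ratio of miR-665, at the Meg3 side, was 1.68 and 1.94 on the WT arrays, 2.38 and 2.40 on the MI arrays and 2.30 and 2.21 on the RQ arrays, with all mutant arrays above both WT arrays. The MI minus WT change was 0.58 (SE 0.13, limma adjusted p = 0.034) and the RQ minus WT change 0.45 (limma adjusted p = 0.057). For miR-543, in the miR-379 to miR-410 group, the WT arrays gave ratios of 1.02 and 1.13, the MI arrays 1.70 and 1.62, and the RQ arrays 1.41 and 1.25. The MI minus WT change of miR-543 was 0.58 (SE 0.12, limma adjusted p = 0.027), and that of miR-345, outside the interval, was 0.61 (SE 0.12, limma adjusted p = 0.028). The neighbour miR-342 had ratios of -0.17 and -0.55 in MI and an MI minus WT change of 1.08 (limma adjusted p = 0.020).

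All 3 rises depended on the scaling. With each array's median in place of loess they were 0.30 (miR-665), 0.28 (miR-543) and 0.34 (miR-345), with limma adjusted p of 0.10, 0.11 and 0.061. On Cy3 alone the MI minus WT changes were 0.40, 0.0018 and 0.14, none called (limma adjusted p = 0.16, 0.998 and 0.62). Net Cy3 of miR-543 was 438 and 376 in WT and 378 and 442 in MI, and the groups overlapped. Its net Cy5 was 120 and 105 in WT and 80 and 89 in MI, lower on both MI arrays. Each of the 3 calls was lost in limma on leaving out any array but WT replicate 2, with adjusted p from 0.051 (miR-543, without RQ replicate 1 or 2) to 0.18. Without WT replicate 1 the changes were 0.45, 0.53 and 0.50.

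**Figure D4:**
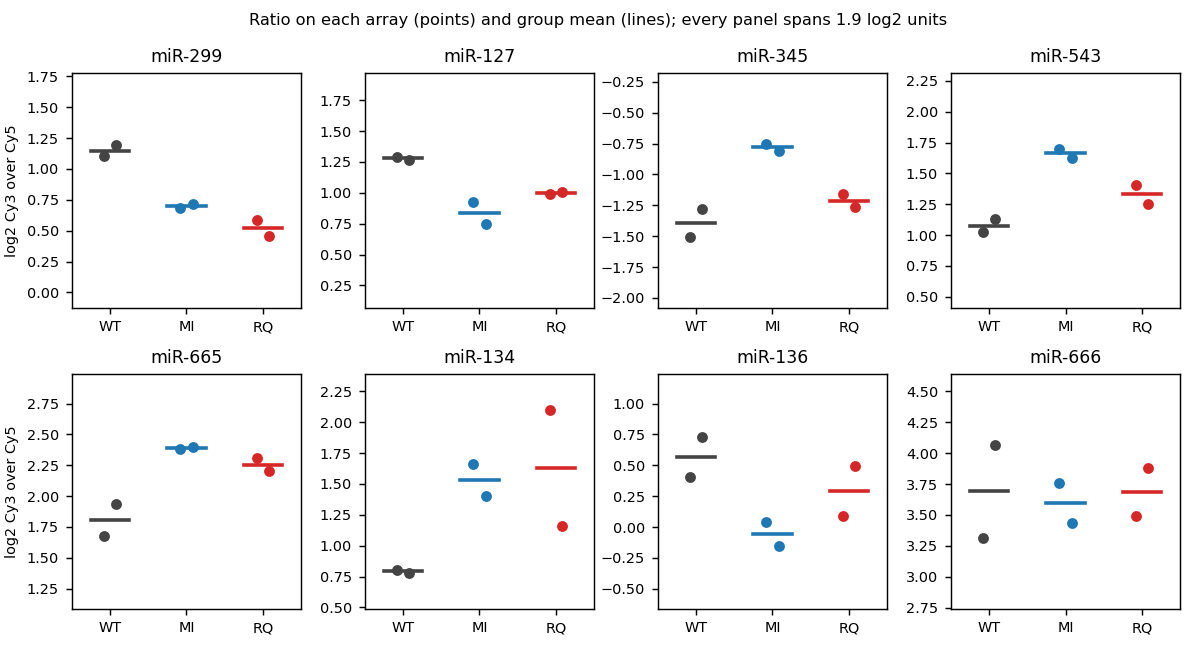
Log2 Cy3 over Cy5 on each array (points) and group mean (lines, n = 2) for the 5 called members and for miR-134, miR-136 and miR-666; every panel spans the same range. In miR-299 both WT arrays (1.10 and 1.20) lie above all mutant arrays, while in miR-134 the 2 RQ arrays lie at 2.10 and 1.16.

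Because both comparisons use the same WT arrays, the values of RQ and MI against WT are not independent. The changes of the called members in RQ and MI were -0.63 and -0.45 for miR-299, -0.28 and -0.44 for miR-127, 0.45 and 0.58 for miR-665, 0.25 and 0.58 for miR-543, and 0.18 and 0.61 for miR-345.

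The RQ and MI groups, whose arrays lay in the same slide row, were compared directly. Across all tested probes 10.9% were called, 3.06% higher and 7.82% lower. Of the 40 members 0 were called in limma, 4 had an unadjusted p under 0.05 (miR-345, miR-337, miR-370 and miR-543) beside 26.5% of all tested probes, and 12.6% of the other probes were called. The median change was -0.02 in the members and -0.10 in all tested probes. In 9 members both RQ arrays were above both MI arrays and in 11 below them, beside 20.1% and 44.9% of all tested probes. The most negative changes were those of miR-770-3p (-0.60, 95% interval -1.30 to 0.10), miR-370 (-0.47, -0.82 to -0.12) and miR-345 (-0.43, -0.74 to -0.12), with limma adjusted p of 0.24, 0.10 and 0.094. The change of miR-770-3p was 0.094, in the other direction, when each array's median replaced loess. The ratio of miR-370, hosted by Rian, was 1.94 and 1.99 in MI and 1.49 and 1.50 in RQ, and 1.47 and 1.83 in WT. It was called (limma adjusted p = 0.033) without WT replicate 1 or without WT replicate 2, which take no part in the difference but do enter the shared spread. The most positive were those of miR-136 (0.35, -0.11 to 0.81), miR-496 (0.21, -0.10 to 0.53) and miR-434-5p (0.21, -0.27 to 0.68). For miR-299 the RQ minus MI change was -0.18 (-0.45 to 0.10), so the falls of miR-299 against WT were not shown to differ between the 2 mutants.

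Replicates of the cluster were close. On the log2 scale a member's 2 replicates had a median SD of 0.12 for WT, 0.058 for MI and 0.082 for RQ, beside 0.15, 0.0987 and 0.0999 in the other tested probes. Members and other probes were not matched for brightness here. The dim set held 22 of the 40 members and 76 of the 254 other probes, and the part of brightness in the SD was not tested. Across the 40 members, which are not independent replicates, the ratios of the 2 replicates correlated with Pearson r of 0.95, 0.97 and 0.97. By brightness, the bright set held 33 lower calls among its 94 other probes between RQ and WT, but only 4 members lay in that set. In the dim set 1 of 22 members was called lower in that comparison, and of 76 other probes 5 were called higher and 2 lower. In the middle set 0 of 14 members were called, and of 84 other probes 15 were called higher and 5 lower.

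Another 4 bright or high-ratio members were called in no comparison of the reported fit. The ratio of miR-666 was 3.31 and 4.07 on the WT arrays, 3.76 and 3.43 on the MI arrays and 3.49 and 3.88 on the RQ arrays, and the groups overlapped. Its net Cy5 signal was 55, 33, 74, 82, 176 and 34 on the 6 arrays, so this high ratio rests on a dim Cy5 signal. For miR-541 the WT arrays gave ratios of 2.00 and 1.83, the MI arrays 1.97 and 1.78, and the RQ arrays 1.86 and 1.67. For miR-495 it was 1.87 and 1.55, 1.73 and 1.68, and 1.61 and 1.55 in the same order. For miR-409 it was 2.16 and 2.07, 1.91 and 2.13, and 2.14 and 1.91. In miR-541 and miR-409 the 3 groups overlapped, and in miR-495 both groups overlapped WT while both RQ arrays lay below both MI arrays.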

How the data were processed

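Per the file headers, the deposited scanner output was written by Agilent Feature Extraction (version 9.5.1.1) and holds each spot's mean and local background intensity in both dyes. The deposited value table gives a log10 ratio, which equalled minus the scanner's own log10 Cy5 over Cy3 and was used as an alternative. Intensities were corrected with normexp (offset 50) and scaled by loess within each array, with control and outlier spots at weight 0, in limma 3.58.1 (R 4.3.3). Outlier spots were left out and log2 Cy3 over Cy5 was averaged over the 4 spots of a probe. Tests used the 294 of 334 probes with more than 0.5 of the spots well above background, in one dye or the other, on 2 or more arrays. Group means were compared with limma's lmFit and eBayes on all 6 arrays (3 residual and 2.99 prior degrees of freedom), with Benjamini-Hochberg adjustment over the 294. The number of arrays limits the precision. In simulated data the fit called 202 of 400 log2 changes of 0.5, 335 of 400 of 1 and 385 of 400 of 1.5, so it missed many small changes. The members and lists were chosen with earlier results of these data known. Named were all called members, the 3 most positive and negative changes in each comparison, the 8 brightest, and the 4 highest and 4 lowest WT ratios. Alternatives were median centring, processed intensity, Cy3 alone, no background correction, offset 16, 2 other filters, outlier spots kept, the deposited table, fits of 2 groups, a replicate block and each array left out; outlier spots used in the loess only, and all alternatives for the WT ratio, were added after seeing the data.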

Additional observations from a re-analysis of the deposited data

How the results depend on the processing

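Arrays in groups of 2 limit every call. Of the called members only miR-299 in RQ minus WT was called under all 12 alternatives other than leaving out an array. Called in RQ minus WT were 1 member in the reported fit, 3 with median centring, 4 with processed signals, 11 on Cy3 alone (1 higher, 10 lower), 3 with offset 16 and 4 in the deposited table. In MI minus WT they were 5, and 3 with processed signals, with only probes above background in Cy3 on all arrays, with outlier spots kept or used in the loess only, and 1 in a fit of the 2 groups. In RQ minus MI they were 0, and 1 with median centring or in a fit of the 2 groups. Leaving out an array gave 0 to 3, 0 to 7 and 0 to 1; the lone array left in a group is then assumed to vary like the other groups.

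The members' median change in RQ minus WT was -0.28 with processed signals, -0.33 on Cy3 alone and -0.27 in the deposited table, where the median of all tested probes shifted by -0.30, -0.26 and -0.26. In MI minus WT it was -0.10 with median centring, -0.30 with processed signals, -0.18 on Cy3 alone and -0.31 in the deposited table, with shifts of -0.03, -0.16, -0.14 and -0.14. In RQ minus MI it was 0.090 with median centring (shift 0.16) and -0.13 on Cy3 alone. Leaving out an array gave -0.076 to 0.019, -0.035 to 0.038 and -0.077 to 0.030. The interval's median WT ratio was 1.07 with offset 16 and 0.80 to 0.83 without a WT array, when 38 of 39 were above 0.

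Directions reversed for miR-770-3p in RQ minus WT (0.22 with median centring, 0.58 on Cy3 alone) and in RQ minus MI (0.094 with median centring). They also reversed in RQ minus MI for miR-543 (0.025 with median centring) and miR-665 (0.20 with median centring, 0.27 with processed signals). In RQ minus WT they reversed for miR-345 (-0.31 with processed signals, -0.36 on Cy3 alone, -0.27 in the deposited table) and miR-543 (-0.21 on Cy3 alone). None of these was called, and the cause was not tested.

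Over all tested probes the share of higher among the calls was 34.9% in RQ minus WT and 70.1% with median centring. In MI minus WT it was 58.7%, and 44.7% with median centring, 28.1% with processed signals, 40.4% on Cy3 alone and 27.0% in the deposited table. In RQ minus MI it was 28.1%, and 61.3%, 40.7%, 44.0% and 47.8% in the same order. The calls of RQ minus MI fell from 32 to 7 without background correction and to 14 with outlier spots kept, and those of MI minus WT from 46 to 27 in a fit of the 2 groups.

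The replicate numbers name arrays only: deviations of same-numbered replicates correlated at 0.18, 0.12 and 0.04. With the number as a replicate block 1, 2 and 0 members were called.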
